A study of Mus musculus with 4 samples.

Results

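The genes of DNA replication and S phase were followed across 4 whole-transcript arrays of sorted mouse small intestine cells. The set is a list of 39 genes of origin licensing, the replicative helicase, the polymerases, the clamp and its loader, nucleotide supply, chromatin assembly and the entry into S phase. A gene counted as measured where an array feature carried its symbol and no other, and 38 of the 39 did, out of 30702 genes measured in all. Mcm7 was the exception, because its feature also carries the symbols of a pair of microRNAs. All 38 measured genes rest on a single feature each, so none has a second reading within an array.

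RNA came from 8-week-old mice carrying Lgr5GFP-CreERT2, in which the gene of the R-spondin receptor Lgr5, a marker of crypt base stem cells, drives GFP and a tamoxifen-dependent Cre. The LncGata6 mutant stem array holds GFP-positive cells with a mutated LncGata6, a long noncoding RNA. The Ehf knockout stem array holds GFP-positive cells without Ehf, an ETS transcription factor of epithelia. The wild-type stem array holds GFP-positive cells, and the non-stem array GFP-negative cells, of wild-type genotype. The labels give neither the sex of the mice, the number pooled for an array nor any Cre induction, and the collection protocol names ILCreg cells, a kind of innate lymphoid cell, as those sorted, which leaves the gate uncertain. Each group is 1 array. No replicate spread, test, standard error or p-value can therefore be had, and every difference below is a description of 2 arrays.

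A cell that divides must copy each chromosome once. In G1 the origin recognition complex, Cdc6 and Cdt1 load the MCM helicase on DNA; at the start of S phase Cdc45 and the GINS complex join it, primase and the polymerases follow, and the sliding clamp Pcna holds them on the template. The supply of deoxynucleotides and of new histones is raised at the same time, largely through E2F transcription factors that are freed when cyclin-dependent kinases phosphorylate the retinoblastoma protein. In the intestinal crypt the Lgr5-positive stem cells and the transit-amplifying cells above them cycle, while the differentiated cells of the villus do not.

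All values are the deposited log2 signals. A difference is the first-named array minus the second, and a gene was said to pass both limits where the difference was at least 1 (2-fold) and the brighter value reached the 75th percentile of the named features on its array. That level limit was 4.93 on the LncGata6 mutant, 4.60 on the Ehf knockout, 4.97 on the wild-type stem and 5.26 on the non-stem array. A second mark, the control limit, was the 95th percentile of the 5222 negative control features, at 5.31 on the LncGata6 mutant, 5.19 on the Ehf knockout, 5.62 on the wild-type stem and 5.16 on the non-stem array. Where the dimmer value lay under it, the limit took its place and the fold is a lower bound, written "at least". No fold is printed where the brighter value, too, lay under it.

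The identity of the cells behind the labels bears on every value. Ehf itself read 5.09 on the LncGata6 mutant, 3.03 on the Ehf knockout, 6.99 on the wild-type stem and 3.75 on the non-stem array, above the control limit on the wild-type stem array only. Whether its feature lies in the deleted stretch is not given, and LncGata6 was not analysed here. Lgr5 read 3.03 on the LncGata6 mutant, 2.79 on the Ehf knockout, 9.41 on the wild-type stem and 3.03 on the non-stem array, so only the wild-type stem array shows the marker of the sort. Of 10 general epithelial markers, 10 lay above the control limit on the LncGata6 mutant, 0 on the Ehf knockout, 10 on the wild-type stem and 10 on the non-stem array. Of 9 neutrophil markers, 0, 9, 0 and 5 did so in the same order of arrays, and the values that touch a comparison stand beside it. The array labelled Ehf knockout thus lacks epithelial signal, and the one labelled non-stem carries liver and kidney transcripts. Groups are named by their labels throughout, and whether samples were exchanged or mixed was not tested. In such bulk RNA, fewer cells of a type and less RNA per cell cannot be told apart.

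Promoters of 7 members are printed here because each of these genes passed the limits in more than 1 comparison below, and because they show promoters with and without an E2F match. They were picked from such genes after their values were seen. Each is the 200 bases before the annotated start, 5′ to 3′ on the gene's strand, from RefSeq on GRCm38.p6. Capitals mark matches, on either strand, to the E2F consensus (TTTCCCGC, TTTCGCGC, TTTGCCGC or TTTGGCGC), to CCAAT and to the GC box GGGCGG. The Mcm6 promoter is chr1:128359706-128359905 on the minus strand, that of Mcm5 is chr8:75109309-75109508 on the plus strand, and that of Pola1 is chrX:93632156-93632355 on the minus strand. The Pcna promoter is chr2:132253181-132253380 on the minus strand and that of Prim1 is chr10:128015015-128015214 on the plus strand. The Rrm1 and Rrm2 promoters, both on the plus strand, are chr7:102441495-102441694 and chr12:24708054-24708253.
Mcm6: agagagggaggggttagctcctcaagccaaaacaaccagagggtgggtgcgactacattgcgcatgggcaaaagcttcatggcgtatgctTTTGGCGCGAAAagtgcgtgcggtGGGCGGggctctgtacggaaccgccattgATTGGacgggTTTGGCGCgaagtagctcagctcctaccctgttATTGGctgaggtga
Mcm5: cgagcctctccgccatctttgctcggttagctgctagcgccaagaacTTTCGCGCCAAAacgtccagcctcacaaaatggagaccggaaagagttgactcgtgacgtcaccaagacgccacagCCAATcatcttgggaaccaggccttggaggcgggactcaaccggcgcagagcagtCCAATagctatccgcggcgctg
Pola1: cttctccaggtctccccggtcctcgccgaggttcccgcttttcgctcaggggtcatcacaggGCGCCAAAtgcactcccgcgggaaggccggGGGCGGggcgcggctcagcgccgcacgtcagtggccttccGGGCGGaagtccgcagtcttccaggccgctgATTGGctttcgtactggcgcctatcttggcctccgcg
Pcna: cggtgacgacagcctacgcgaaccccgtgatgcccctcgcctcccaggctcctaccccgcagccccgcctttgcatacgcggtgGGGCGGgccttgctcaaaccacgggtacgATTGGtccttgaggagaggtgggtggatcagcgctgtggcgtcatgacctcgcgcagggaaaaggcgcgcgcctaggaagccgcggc
Rrm1: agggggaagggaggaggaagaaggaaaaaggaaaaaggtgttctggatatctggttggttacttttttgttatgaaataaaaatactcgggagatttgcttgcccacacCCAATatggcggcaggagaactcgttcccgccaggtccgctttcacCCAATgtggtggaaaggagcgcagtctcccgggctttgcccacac
Rrm2: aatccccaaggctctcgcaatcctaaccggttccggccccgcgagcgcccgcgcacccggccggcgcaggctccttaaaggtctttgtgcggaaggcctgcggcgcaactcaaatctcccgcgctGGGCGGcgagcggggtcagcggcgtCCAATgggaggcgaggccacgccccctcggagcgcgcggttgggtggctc
Prim1: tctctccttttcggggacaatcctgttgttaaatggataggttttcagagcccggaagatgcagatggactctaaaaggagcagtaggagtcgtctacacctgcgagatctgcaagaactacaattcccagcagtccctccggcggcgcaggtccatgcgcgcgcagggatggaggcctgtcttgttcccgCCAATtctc

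Mcm6 holds 3 E2F matches in this stretch and Mcm5 holds 2; in each promoter a pair of matches on opposite strands overlap and print as 1 run of capitals. Pola1 holds 1. Pcna, Prim1, Rrm1 and Rrm2 hold none of these letters here, and each of the 7 holds at least 1 CCAAT box.

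Over windows from 250 bases before to 50 after the start, 32 of the 38 measured members had entries in the RefSeq table, 36 promoters in all. Ccne2, Gins1, Gins2, Gins4, Mcm4 and Pole had none. An E2F match lay in 12 of the 36 (33.3%), against 2.26% of all 32851 promoters of that length. The GC box lay in 27 of the 36, against 35.7% of all, and CCAAT in 19 (52.8%), against 37.4% of all.

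The 12 genes with an E2F match were Orc1, Cdc6, Cdt1, Mcm3, Mcm5, Mcm6, Gins3, Pola1, Pold1, Rfc3, Lig1 and Uhrf1. The matches of Mcm3, Cdt1, Lig1 and Pold1 begin 20 to 40 bases after the start, and that of Uhrf1 begins at position -185. Median expression differences are given with and without a match, where a match means the exact letters within this window. For the wild-type stem against the non-stem array the median difference was 1.04 over the 12 genes with a match and 0.98 over the 20 without. For the LncGata6 mutant against the wild-type stem array the medians were -0.54 with and -0.57 without, and for the Ehf knockout against the wild-type stem array 0.17 with and -0.07 without. For the LncGata6 mutant against the Ehf knockout array they were -0.77 with and -0.64 without. The split was not tested.

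**Figure D1:**
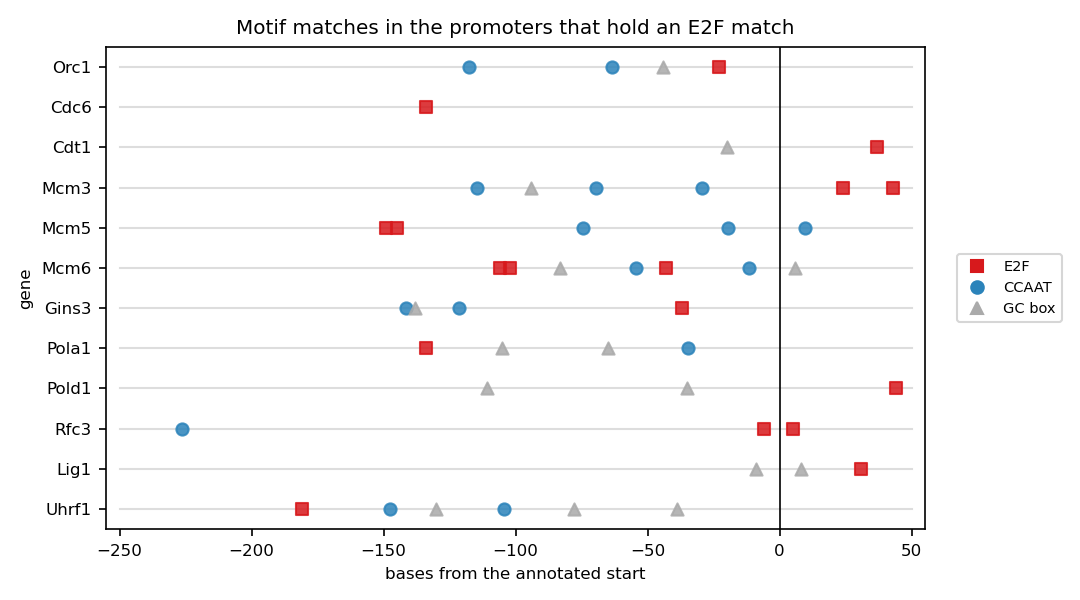
Positions of E2F matches (squares), CCAAT boxes (circles) and GC boxes (triangles) by their centre, in bases from the annotated start, for the 12 members whose promoter holds an E2F match. The overlapping pairs of Mcm5 and Mcm6 lie before the start, and the matches of Cdt1, Mcm3, Pold1 and Lig1 lie after it.

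Across the arrays, replication genes read lowest in the non-stem cells and highest in the Ehf knockout or wild-type stem cells. The median level of the 38 members was 4.46 on the LncGata6 mutant, 4.89 on the Ehf knockout, 5.04 on the wild-type stem and 4.11 on the non-stem array. Placed among all genes of the same array, the median member stood at percentile 68.4 on the LncGata6 mutant, 78.9 on the Ehf knockout, 75.9 on the wild-type stem and 58.0 on the non-stem array. The non-stem array was the lowest of the 4 for 34 members and the highest for none. The highest reading fell on the Ehf knockout array for 20 members, on the wild-type stem array for 17 and on the LncGata6 mutant array for 1, Ccne2.

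Which of the Ehf knockout and wild-type stem arrays is highest depends on how the arrays are scaled. After quantile normalization the Ehf knockout array was highest for 31 members and the wild-type stem array for 7. The order of the LncGata6 mutant and non-stem arrays was steadier, with 35 of 38 members higher on the LncGata6 mutant array than on the non-stem array as deposited.

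Most members are dim. The count above the control limit was 5 on the LncGata6 mutant, 15 on the Ehf knockout, 7 on the wild-type stem and 3 on the non-stem array, and 22 members lay under it on all 4 arrays. As shares these were 13.2%, 39.5%, 18.4% and 7.89% of the members, where all genes gave 20.1%, 17.5%, 16.5% and 26.5% in the same order. Only Pcna and Rrm1 lay above the control limit on every array. Mcm6, a subunit of the MCM ring, read 5.57 on the LncGata6 mutant, 6.75 on the Ehf knockout, 6.65 on the wild-type stem and 5.03 on the non-stem array, where it fell under the limit.

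**Figure D2:**
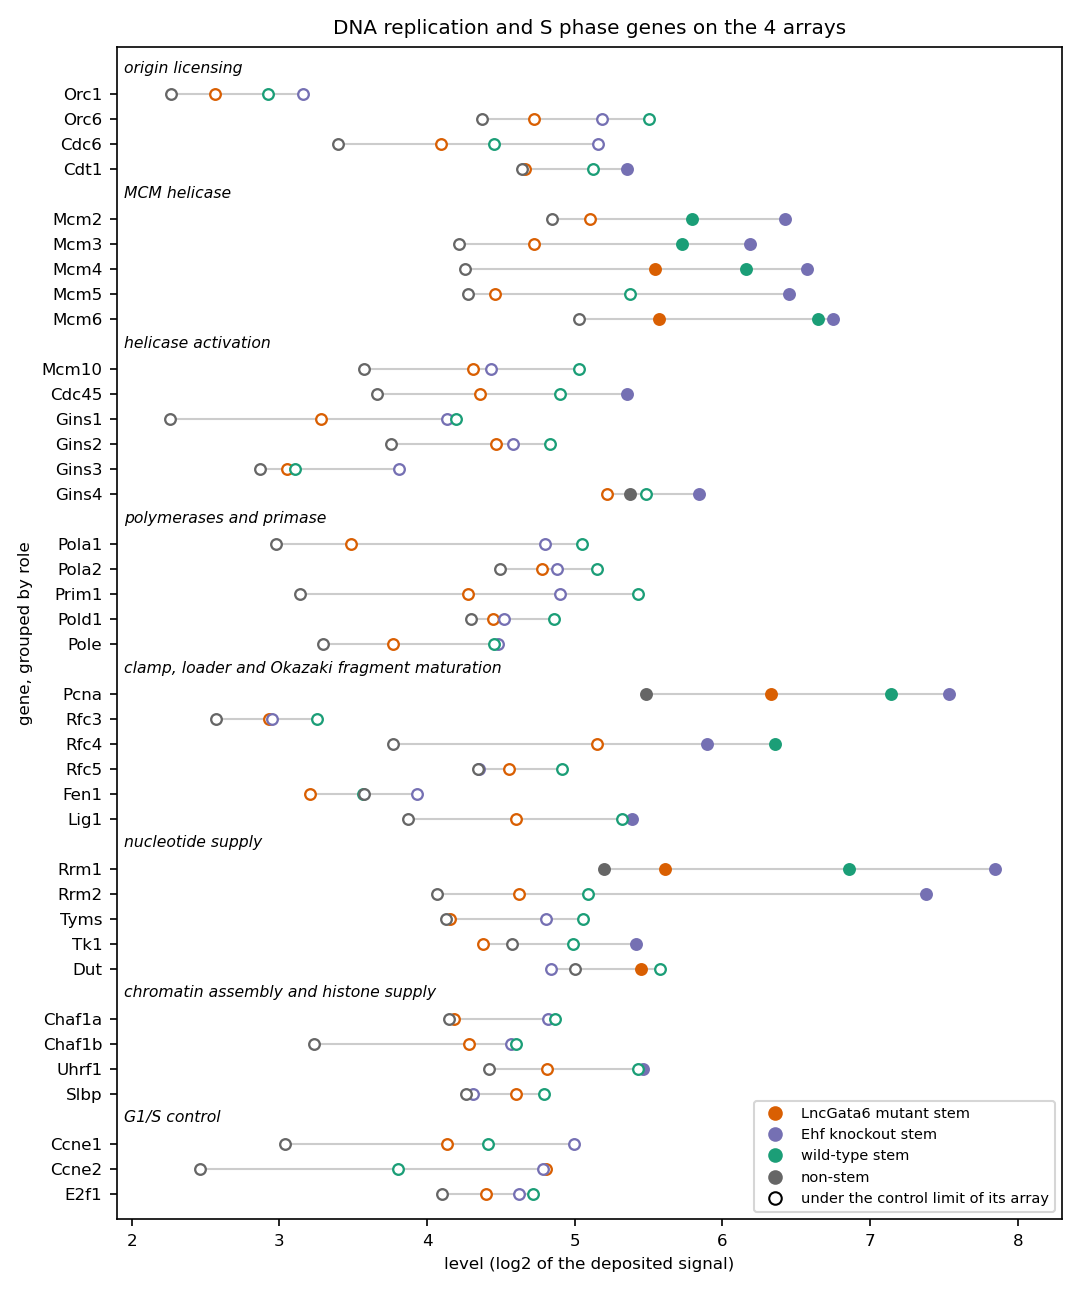
Deposited log2 level of each of the 38 measured members on the LncGata6 mutant stem, Ehf knockout stem, wild-type stem and non-stem arrays, 1 array a group, ordered by role, with open points under the control limit of their array. Values run from 2.26 to 7.85, and the non-stem array gives the lowest value for 34 members.

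The comparison of wild-type stem with non-stem cells asks how replication genes differ between the cells sorted as stem cells and the rest. They were higher in the stem cells nearly throughout: 37 of 38 differences were positive, with a median of 1.07. The median over all genes was -0.11, and 40.9% of them were positive. Both limits were passed upwards by 14 members (36.8%) and downwards by none, where 3.83% of all genes passed upwards and 7.07% downwards. After quantile normalization those shares of all genes were 5.64% and 5.48%, and 16 members passed upwards. The members that passed cover 7 of the 8 roles, with G1/S control the exception, and all 14 also passed after each of 3 further scalings.

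Helicase subunits formed the largest group among them, with 4 of 5 measured MCM genes passing. Mcm6 read 6.65 in wild-type stem and 5.03 in non-stem cells, at least 2.80-fold higher. Mcm4 read 6.16 in wild-type stem and 4.26 in non-stem cells, at least 2.00-fold higher. Mcm3 read 5.73 in wild-type stem and 4.22 in non-stem cells, at least 1.48-fold higher. Mcm5 passed at 5.38 in wild-type stem and 4.28 in non-stem cells, both under the control limits, so no fold is given. The MCM proteins encircle DNA and unwind it, and Mcm2, the subunit of this ring that also binds histones, stayed just outside the size limit at 5.79 in wild-type stem and 4.85 in non-stem cells.

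The sliding clamp and the loader subunit Rfc4 also passed. Rfc4, a subunit of the loader, read 6.35 in wild-type stem and 3.77 in non-stem cells, at least 2.29-fold higher. The other loader subunits among the members, Rfc3 and Rfc5, differed by 0.68 and 0.57 and did not pass. Outside the set, loader subunit Rfc1 read 5.75 in wild-type stem and 5.18 in non-stem cells. Rfc2 ran the other way at 5.47 and 5.82 in the same order, and neither passed. Pcna, the clamp itself, read 7.14 in wild-type stem and 5.49 in non-stem cells, 3.15-fold higher. Lig1, which seals Okazaki fragments, read 5.32 in wild-type stem and 3.87 in non-stem cells, both under the control limits. Fen1, the nuclease that trims those fragments, was the 1 member with no positive difference, at 3.57 in wild-type stem and 3.58 in non-stem cells, both under the control limits, and its sign turned in each further scaling.

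Of the members that start new DNA strands, Prim1 and Pola1 passed on dim signals, and Pola2, at a difference of 0.66, did not pass. Prim1, the catalytic subunit of primase, read 5.43 in wild-type stem and 3.14 in non-stem cells. Pola1, the catalytic subunit of polymerase alpha, read 5.05 in wild-type stem and 2.98 in non-stem cells. Both passed the limits, yet all these values lie under the control limits, so no fold is given. Prim2, a primase gene outside the set, read 5.92 in wild-type stem and 4.36 in non-stem cells. It passed with its brighter value above the control limit. Pold1 and Pole, the catalytic subunits of the lagging- and leading-strand polymerases, did not pass: Pold1 differed by 0.56, under the size limit, and Pole by 1.16 with a brighter value under the level limit.

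Nucleotide supply was led by ribonucleotide reductase, which makes deoxynucleotides. Rrm1, its large subunit, read 6.86 in wild-type stem and 5.20 in non-stem cells, 3.15-fold higher. Rrm2, the small subunit whose level follows S phase, read 5.09 in wild-type stem and 4.07 in non-stem cells, under both control limits. Tyms, Tk1 and Dut, which make and guard the thymidine pool, differed by 0.93, 0.41 and 0.57 and did not pass.

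Of the remaining roles, Orc6 passed for licensing, Mcm10 for helicase activation and Uhrf1 for chromatin. Orc6, the smallest subunit of the origin recognition complex, read 5.50 in wild-type stem and 4.37 in non-stem cells. Mcm10, which helps to activate the loaded helicase, read 5.03 in wild-type stem and 3.57 in non-stem cells. Uhrf1, which brings Dnmt1 to newly copied DNA, read 5.43 in wild-type stem and 4.42 in non-stem cells. Of the 14 members that passed, the brighter value lay above the control limit for 6: Mcm3, Mcm4, Mcm6, Pcna, Rfc4 and Rrm1.

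Other genes of replication, S phase control and histone supply moved less evenly. Of 81 measured genes in these further lists, 24 passed upwards and 3 downwards, with a median difference of 0.58. Cyclin A2 (Ccna2), the S phase cyclin, read 7.43 in wild-type stem and 4.43 in non-stem cells, at least 4.82-fold higher. Ticrr, which helps to load Cdc45, read 5.57 and 2.55 in the same order, and Pclaf, a Pcna-binding protein, 5.59 and 2.74. The 3 that were lower in wild-type stem cells belong to folate metabolism and the mitochondrial thymidine pool: Shmt2 (5.40 in wild-type stem, 7.33 in non-stem cells), Mthfd1 (6.64 and 8.11) and Tk2 (3.67 and 5.29).

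Genes of mitosis differed more than those of replication in size. Of 27 measured mitotic genes, 23 passed upwards and the median difference was 2.28, against 1.07 for the replication members. Mki67, the proliferation marker, read 8.55 in wild-type stem and 5.97 in non-stem cells, 5.97-fold higher.

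Markers of other cells and organs moved with this comparison. Paneth cell markers above the control limit numbered 7 of 7 in wild-type stem and 1 of 7 in non-stem cells, with summed linear levels of 11162 and 280. Fibroblast markers numbered 0 of 4 in wild-type stem and 4 of 4 in non-stem cells. Hepatocyte markers above the control limit numbered 0 of 5 in wild-type stem cells and 5 of 5 in non-stem cells, and kidney tubule markers 0 of 6 and 6 of 6. The summed linear level of the hepatocyte list was 30.0 on the wild-type stem and 14742 on the non-stem array, with Alb at 2.13 and 12.5 on the log2 scale. The part of these cells in the lower replication signal of the non-stem array was not tested.

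**Figure D3:**
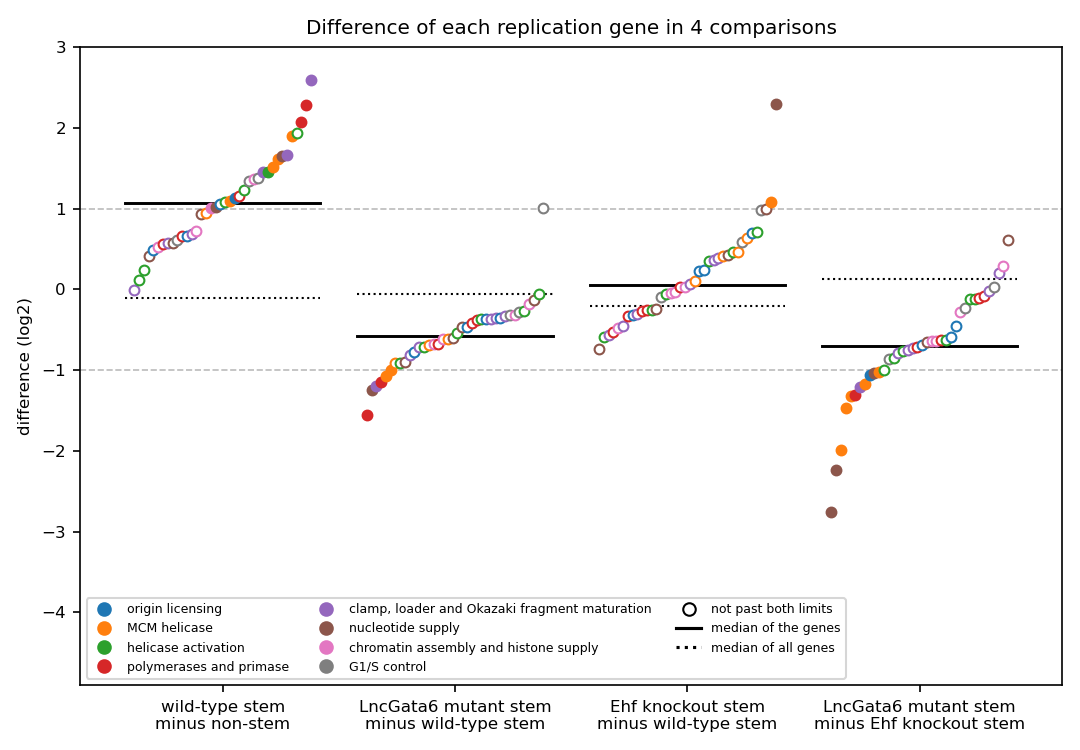
Difference in log2 level for each of the 38 members in the 4 comparisons, first-named array minus second. Filled points pass both limits and open points do not, colours give the role, solid bars the median of the 38 genes, dotted bars that of all genes and dashed lines the size limit of 1 either way. For wild-type stem against non-stem cells 37 of 38 points lie above 0, and for the LncGata6 mutant against wild-type stem cells 37 of 38 lie below it.

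The LncGata6 mutant was compared with wild-type stem cells to see how replication genes stand after mutation of this RNA. They were lower in the mutant by a modest amount across nearly the whole set. Differences were negative for 37 of 38 members, with a median of -0.57. All genes had a median of -0.06, and 40.7% of them were positive. Both limits were passed downwards by 6 members (15.8%) and upwards by none, where 3.02% of all genes passed downwards and 2.81% upwards. After cyclic loess scaling those shares were 2.12% and 3.58%, and 4 members passed downwards.

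The 6 were Mcm3, Mcm6, Pola1, Prim1, Rfc4 and Rrm1. Rrm1 read 5.61 in the LncGata6 mutant and 6.86 in wild-type stem cells, 2.37-fold lower. Mcm6 read 5.57 in the LncGata6 mutant and 6.65 in wild-type stem cells, 2.11-fold lower. Rfc4 read 5.15 in the LncGata6 mutant and 6.35 in wild-type stem cells, at least 2.06-fold lower. In these 3 and in Mcm3 the wild-type value lies above the control limit.

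Mcm3 stood at the size limit, at 4.72 in the LncGata6 mutant and 5.73 in wild-type stem cells. The catalytic subunits of polymerase alpha and primase passed on signals under the control limits. Pola1 read 3.49 in the LncGata6 mutant and 5.05 in wild-type stem cells, and Prim1 read 4.28 and 5.43 in the same order. Their partner Pola2, the accessory subunit, read 4.77 in the LncGata6 mutant and 5.15 in wild-type stem cells and did not pass. Under all 4 scalings Pola1, Prim1, Rfc4 and Rrm1 passed, while Mcm3 passed as deposited only and Mcm6 passed in all but cyclic loess.

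Among the members short of the size limit, Pcna read 6.33 in the LncGata6 mutant and 7.14 in wild-type stem cells. Mcm5 read 4.46 in the LncGata6 mutant and 5.38 in wild-type stem cells, and Tyms, thymidylate synthase, 4.15 and 5.05. Every one of the 5 MCM, 5 polymerase and 6 clamp and maturation genes was lower in the mutant, with role medians of -0.92, -0.68 and -0.54. The 1 positive difference was that of cyclin E2 (Ccne2), a partner of Cdk2 at the start of S phase, at 4.81 in the LncGata6 mutant and 3.80 in wild-type stem cells, both under the limits. Cyclin E1 (Ccne1) read 4.13 in the LncGata6 mutant and 4.41 in wild-type stem cells.

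All 6 members that were lower in the mutant are among the 14 that were higher in wild-type stem than in non-stem cells. Both comparisons use the wild-type stem array, so a high reading on it favours both results. The same overlap over all genes was not counted. Pola1 lies on the X chromosome and, like Xist, the RNA of the inactive X, read higher on the Ehf knockout and wild-type stem arrays than on the other two. Xist read 2.44 on the LncGata6 mutant, 8.79 on the Ehf knockout, 8.46 on the wild-type stem and 1.93 on the non-stem array. Prim1, on chromosome 10, orders the arrays as Pola1 does, and all values of both genes lie under the control limits. Wild-type stem against non-stem cells and both comparisons of the LncGata6 mutant set an array with high Xist against one with low Xist. In these the part of the mice's sex in any member, Pola1 included, cannot be told apart from that of genotype or cells. It was not tested.

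In the further replication lists 2 genes passed upwards and 14 downwards of 81, with a median of -0.45. Mthfd1, an enzyme of folate metabolism, read 5.03 in the LncGata6 mutant and 6.64 in wild-type stem cells, at least 2.51-fold lower. Ccna2 read 6.09 in the LncGata6 mutant and 7.43 in wild-type stem cells, 2.53-fold lower. Hells, a chromatin remodeller of replicating DNA, read 3.91 and 5.25 in the same order. Samhd1, which degrades deoxynucleotides and is abundant in leukocytes, ran the other way at 8.24 in the LncGata6 mutant and 6.75 in wild-type stem cells, 2.80-fold higher, and Rb1, the retinoblastoma protein gene, read 7.70 and 6.69.

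Mitotic genes again differed by more, with 16 of 27 lower and a median of -1.20. Top2a, the topoisomerase that untangles sister chromatids, read 5.82 in the LncGata6 mutant and 7.52 in wild-type stem cells, 3.26-fold lower. Mki67 read 6.84 in the LncGata6 mutant and 8.55 in wild-type stem cells, also 3.26-fold lower.

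Markers of other cells moved with these values. Of 8 enterocyte markers, 8 lay above the control limit on the LncGata6 mutant and 5 on the wild-type stem array, with summed linear levels of 15524 and 2144. Of 7 T cell and intraepithelial lymphocyte markers 7 and 3 did so, with sums of 6557 and 393. Paneth cell markers numbered 6 of 7 on the LncGata6 mutant and 7 of 7 on the wild-type stem array, with sums of 3781 and 11162. Crypt base stem markers had a median of 4.89 on the LncGata6 mutant and 6.55 on the wild-type stem array. Their part in the replication values was not tested.

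The Ehf knockout was compared with wild-type stem cells to see how replication genes stand without this factor, as far as the label of the knockout array holds. As deposited they were split in sign: 21 members were higher and 17 lower, with a median of 0.05. All genes had a median of -0.20, and 31.3% of them were positive. Both limits were passed upwards by Rrm2 and Mcm5 (5.26%) and downwards by none, where 2.59% of all genes passed upwards and 5.29% downwards. After quantile normalization the shares of all genes were 3.68% and 3.37%.

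Ribonucleotide reductase was higher in both subunits, of which Rrm2 passed. Rrm2 read 7.38 in the Ehf knockout and 5.09 in wild-type stem cells, at least 3.38-fold higher. Its partner Rrm1 read 7.85 in the Ehf knockout and 6.86 in wild-type stem cells, 1.99-fold and just under the size limit.

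The MCM helicase leaned the same way, with 5 of 5 subunits higher and a role median of 0.46. Mcm5 read 6.45 in the Ehf knockout and 5.38 in wild-type stem cells, at least 1.78-fold higher. Mcm2 read 6.42 in the Ehf knockout and 5.79 in wild-type stem cells, and Mcm3 6.19 and 5.73. Mcm6 differed least, at 6.75 in the Ehf knockout and 6.65 in wild-type stem cells.

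The polymerase genes had a role median of -0.27 as deposited, which became 0.09 after quantile normalization, so that no direction can be given for them. Prim1 read 4.90 in the Ehf knockout and 5.43 in wild-type stem cells, and Pola1 read 4.80 and 5.05, a difference whose sign turned after quantile normalization and cyclic loess. Rfc4 read 5.90 in the Ehf knockout and 6.35 in wild-type stem cells. Dut, which removes dUTP so that it is not built into DNA, read 4.84 in the Ehf knockout and 5.58 in wild-type stem cells, a difference of -0.74 on dim signals, and stayed lower in each scaling. None of these passed the size limit.

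Ccne2 lay just short of it, at 4.78 in the Ehf knockout and 3.80 in wild-type stem cells, a difference of 0.98. E2f1, a transcription activator at the G1/S boundary, read 4.62 in the Ehf knockout and 4.72 in wild-type stem cells, with the sign turned in each further scaling. Licensing factor Cdc6 read 5.16 in the Ehf knockout and 4.46 in wild-type stem cells.

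The split of signs in the set depends on the scaling. After median centring 25 of 38 members were higher, with a median difference of 0.23. After quantile normalization 31 of 38 members were higher, the median difference was 0.40, and 5 members passed upwards: Cdc6, Mcm5, Rrm1, Rrm2 and Ccne2. The further replication lists gave 4 higher and 4 lower of 81, with a median of -0.11. Samhd1 read 8.28 in the Ehf knockout and 6.75 in wild-type stem cells, close to its 8.24 in the LncGata6 mutant. Asf1b, a histone chaperone of S phase, read 6.47 in the Ehf knockout and 5.14 in wild-type stem cells, at least 1.79-fold higher. E2f2, a second activating E2F, read 5.88 in the Ehf knockout and 4.74 in wild-type stem cells, at least 1.19-fold higher. Cdkn1a, the p21 inhibitor of cyclin-dependent kinases, read 4.53 in the Ehf knockout and 8.05 in wild-type stem cells, at least 7.28-fold lower. Cyclin D2 (Ccnd2) read 6.24 in the Ehf knockout and 7.70 in wild-type stem cells, 2.74-fold lower.

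Histone genes expressed in S phase passed upwards for 5 of 13 measured and downwards for none. H2ac20 read 7.16 in the Ehf knockout and 4.87 in wild-type stem cells, at least 2.89-fold higher. H1f1 read 6.91 in the Ehf knockout and 5.27 in wild-type stem cells, at least 2.44-fold higher. Histone genes are near-identical copies, so a feature can read more than its own gene. Only 1 of 27 mitotic genes passed, Mki67 at 9.78 in the Ehf knockout and 8.55 in wild-type stem cells, 2.35-fold higher.

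Cell markers separated the Ehf knockout from the wild-type stem array. General epithelial markers lay above the control limit for 0 of 10 on the Ehf knockout and 10 of 10 on the wild-type stem array, with summed linear levels of 126 and 5219, and Epcam at 3.78 and 9.70 on the log2 scale. Neutrophil markers lay above it for 9 of 9 on the Ehf knockout and 0 of 9 on the wild-type stem array, with sums of 11240 and 60.9. Paneth cell markers lay above it for 1 of 7 on the Ehf knockout and 7 of 7 on the wild-type stem array. All 4 B cell and 5 macrophage markers, 5 of 7 T cell markers and 2 of 3 erythroid markers lay above it on the Ehf knockout array. Mpo and Elane, made by dividing granulocyte precursors, read 8.00 and 6.87 on the Ehf knockout and 3.03 and 2.65 on the wild-type stem array. The part of these cells in the replication values was not tested.

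**Figure D4:**
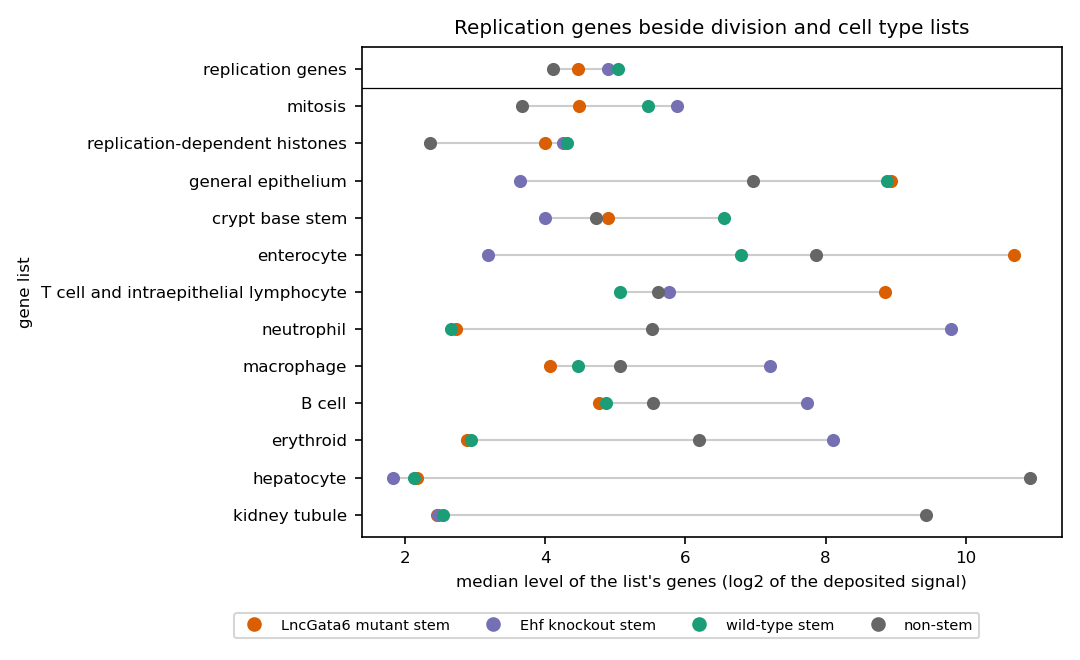
Median log2 level of the 38 replication genes and of lists of mitotic, histone and cell type marker genes on each of the 4 arrays. The replication medians span 4.11 to 5.04, while the hepatocyte median, 10.9 on the non-stem array, separates that array from the rest. The neutrophil median was 9.80 on the Ehf knockout and 5.53 on the non-stem array, and lower on the others. The enterocyte median was 10.7 on the LncGata6 mutant, 3.18 on the Ehf knockout, 6.79 on the wild-type stem and 7.86 on the non-stem array.

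Set directly against each other, the LncGata6 mutant had lower replication signals than the Ehf knockout. The median difference was -0.70 where all genes had 0.13. Of the members 34 of 38 were lower, while 62.4% of all genes were positive. Both limits were passed downwards by 11 members (28.9%) and upwards by none, where 3.47% of all genes passed downwards and 6.16% upwards. After quantile normalization the shares of all genes were 4.71% and 4.62%, and 16 members passed downwards. The 11 that passed as deposited were Cdc6, Mcm2, Mcm3, Mcm4, Mcm5, Mcm6, Pola1, Pcna, Rrm1, Rrm2 and Tk1, and all of them also passed under the 3 further scalings. For 9 of them the Ehf knockout value lay above its control limit.

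The whole measured MCM ring is among the 11, as is ribonucleotide reductase. Rrm2 read 4.62 in the LncGata6 mutant and 7.38 in the Ehf knockout, at least 4.20-fold lower. Rrm1 read 5.61 in the LncGata6 mutant and 7.85 in the Ehf knockout, 4.71-fold lower. Mcm5 read 4.46 in the LncGata6 mutant and 6.45 in the Ehf knockout, at least 2.21-fold lower.

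Of the other MCM genes, Mcm3 was at least 1.84-fold and Mcm2 at least 2.16-fold lower. Mcm6 was 2.26-fold and Mcm4 2.04-fold lower, both with the LncGata6 mutant value above its control limit. Pcna read 6.33 in the LncGata6 mutant and 7.53 in the Ehf knockout, 2.31-fold lower. Tk1, the thymidine kinase of S phase, read 4.38 in the LncGata6 mutant and 5.42 in the Ehf knockout, at least 1.08-fold lower.

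The 4 members that were higher in the LncGata6 mutant as deposited were Dut, Slbp, Rfc5 and Ccne2, of which only Dut kept that sign after quantile normalization. Dut read 5.45 in the LncGata6 mutant and 4.84 in the Ehf knockout, a difference of 0.61. Slbp, which binds the stem-loop of histone messages, read 4.60 in the LncGata6 mutant and 4.31 in the Ehf knockout. The differences of Rfc5 and Ccne2 were 0.20 and 0.02.

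Among other genes of G1/S control, Cdkn1a read 8.87 in the LncGata6 mutant and 4.53 in the Ehf knockout, at least 12.8-fold higher. E2f2 read 4.20 in the LncGata6 mutant and 5.88 in the Ehf knockout, and E2f8, a repressor of the E2F family that is itself induced in S phase, read 4.76 and 6.71. Another E2F gene, E2f3, passed upwards, at 5.28 in the LncGata6 mutant and 3.92 in the Ehf knockout, both under the control limits. Of the 81 further replication genes, 2 passed upwards and 13 downwards, and 5 of 13 histone and 20 of 27 mitotic genes passed downwards. The arrays differ as widely in cell markers, with 10 of 10 epithelial markers above the control limit on the LncGata6 mutant and 0 of 10 on the Ehf knockout array. The counts were 0 of 9 and 9 of 9 for neutrophil, 1 of 4 and 4 of 4 for B cell and 7 of 7 and 5 of 7 for T cell markers in the same order. Their part in the replication values was not tested.

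The 4 comparisons share arrays, and the members' values can be set side by side. For the MCM genes the role medians were -0.92 for the LncGata6 mutant and 0.46 for the Ehf knockout, each against wild-type stem cells, and 1.51 for wild-type stem against non-stem cells. For nucleotide supply they were -0.61, 0.43 and 0.93 in the same order, and for licensing -0.41, 0.23 and 0.86. The polymerases had -0.68, -0.27 and 1.16, the clamp and maturation genes -0.54, -0.12 and 1.07, and chromatin assembly -0.47, -0.04 and 0.86. In these last 3 roles the middle value, of the Ehf knockout, turned positive after quantile normalization.

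A total of 21 members passed in none of the 4 comparisons. The same count over all genes was not made. Per comparison and direction, 2.59% to 7.07% of all genes passed, so most genes do not pass in any given comparison. Among the 21 are all 4 GINS subunits, Cdc45, Cdt1, Orc1, Pola2, Pold1 and Pole, the loader subunits Rfc3 and Rfc5, and Fen1. The others are Tyms, Dut, both subunits of the histone chaperone CAF-1 (Chaf1a and Chaf1b), Slbp, both cyclin E genes and E2f1. Gins1, of the GINS complex, read 3.28 on the LncGata6 mutant, 4.14 on the Ehf knockout, 4.19 on the wild-type stem and 2.26 on the non-stem array, with a difference of 1.94 between wild-type stem and non-stem cells that stayed under the level limit. Gins4 differed little, at 5.22 on the LncGata6 mutant, 5.84 on the Ehf knockout, 5.49 on the wild-type stem and 5.37 on the non-stem array.

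Close to the size limit, Uhrf1 at 1.01 and Rrm2 at 1.02 were just inside in wild-type stem against non-stem cells, and Mcm2 at 0.94 was just outside. For the LncGata6 mutant against wild-type stem cells Mcm3 at -1.00 was just inside and Mcm5 at -0.92 just outside. For the Ehf knockout against wild-type stem cells Mcm5 at 1.08 was inside and Rrm1 at 0.99 outside.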

How the data were processed

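Total RNA of 4 sorted cell samples was measured on 4 Clariom D mouse arrays, 1 per group. The deposited series table gives the authors' log2 signal per feature; the submitters' processing notes name Affymetrix Power Tools and RMA, and versions and a genome build are not given in the sources used here. The method RMA models background and summarises probes, which compresses differences of dim features. Of 72688 features, 31258 carried 1 gene symbol in the platform annotation after updating 1789 symbols through RefSeq (GRCm38.p6), and 1492 with several were left out. This gave 30702 genes. For the 441 genes with several features, the one with the highest mean was used.

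Differences of log2 values were computed between 2 arrays for 4 comparisons, with no test, since 1 array a group leaves no spread to estimate, and precision is limited by the number of arrays. The limits stand in the text. Members may all be named, and in full per comparison the 5 largest differences each way among those past both limits and per role the brightest gene. From each further list up to 4 genes past the limits are named per comparison; Mki67, Lgr5, Epcam, Ptprc, Alb and the first 2 genes of marker lists may also be named. Xist, Mpo, Elane, E2f2, E2f3, Rfc1, Rfc2 and Top2a, where they fall outside it, were chosen after their values were seen. The members and lists were chosen with earlier results of these data known. Of the 85 further replication genes 81 were measured, and of 35 histone genes 13.

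Alternatives were median centring, quantile normalization and cyclic loess (limma 3.58.1, R 4.3.3), folds of 1.5 and 3, both other level limits, and the median of a gene's features. Calls were tested on simulated arrays of the real genes, with a chosen noise and changes of known size above the size limit, in genes above the level limit. That checks the call rule only, not the spread between mice or arrays. Promoters were searched in Python 3.11.15 with pandas 2.3.3 and numpy 2.4.6.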

Additional observations from a re-analysis of the deposited data

Results flagged for a closer look

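Both limits were passed by 8 members in either mutant's comparison with wild-type stem cells. As deposited, 5 of them had opposite signs in the 2 mutants and 3 the same sign. In these 5, the difference from the wild-type stem array was negative in the LncGata6 mutant and positive in the Ehf knockout. Mcm3 differed by -1.00 in the LncGata6 mutant and 0.46 in the Ehf knockout, and Mcm5 by -0.92 and 1.08. Mcm6 differed by -1.08 in the LncGata6 mutant and 0.10 in the Ehf knockout. The reductase subunit Rrm1 differed by -1.25 in the LncGata6 mutant and 0.99 in the Ehf knockout, and Rrm2 by -0.47 and 2.29. The 3 others were negative in both as deposited: Pola1 at -1.56 in the LncGata6 mutant and -0.25 in the Ehf knockout, Prim1 at -1.15 and -0.52, and Rfc4 at -1.20 and -0.46. With 1 array a group the difference between the mutants was not tested, and both use the same wild-type stem array. The split of signs over all genes was not counted. Against wild-type stem cells, 40.7% of all genes had a positive difference in the LncGata6 mutant and 31.3% in the Ehf knockout.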

How the results depend on the processing

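No paired analysis was possible because each group is 1 array. No member that passed changed sign under an alternative, nor did the median over all members. For the Ehf knockout against wild-type stem, the role medians turned positive after quantile normalization for the polymerases (0.09), the clamp and maturation genes (0.17) and chromatin assembly (0.31). The members' median difference, after median centring, quantile normalization and cyclic loess in that order, was 1.19, 1.24 and 1.19 for wild-type stem against non-stem cells. It was -0.56, -0.52 and -0.51 for the LncGata6 mutant against wild-type stem, 0.23, 0.40 and 0.36 for the Ehf knockout against wild-type stem, and -0.87, -1.01 and -0.92 for the LncGata6 mutant against the Ehf knockout. In the same order of scalings, 4, 5 and 4 members passed upwards in the Ehf knockout against wild-type stem. A limit of 1.5-fold gave 6 higher and 2 lower there, 16 lower for the LncGata6 mutant against wild-type stem, and 1 higher and 21 lower for the LncGata6 mutant against the Ehf knockout. A limit of 3-fold gave 7 higher for wild-type stem against non-stem, 0 lower for the LncGata6 mutant against wild-type stem, 1 higher for the Ehf knockout against wild-type stem and 3 lower for the LncGata6 mutant against the Ehf knockout. With no limit on the brighter value 22 members were higher in wild-type stem than in non-stem cells, and 1, Ccne2, was higher in the LncGata6 mutant than in wild-type stem. With the brighter value above the control limit, 6 were higher in wild-type stem than in non-stem cells. Those count changes follow from the limits themselves; the cause of the scaling changes was not tested. The median of features changed no member, as each has 1 feature. Dim signal limits the folds, since 22 of 38 members lay under the control limit on every array.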
